A study of Mus musculus with 12 samples.

Results

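Perp, Tgds, Ebag9, Itfg1 and Tmem102 are 5 genes of mouse liver, 5 of 46882 gene names in the deposited count table and 5 of the 13706 that were tested. They were named as genes whose level in A1cf -/- liver lay far below that in wild-type liver next to the spread within each genotype, in these same 12 libraries. Their difference between genotypes is therefore given as a description, with no test. All 5 passed the filter on low counts, with 88 counts or more in every library.

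RNA came from whole livers of C57BL/6 mice aged 6 to 8 weeks, 6 wild-type mice (WT) and 6 mice of the A1cf -/- genotype (KO), which the design text calls biological replicates. The labels name no agent in either group. A1CF binds RNA in liver and gut cells; it was found through C-to-U editing of Apob mRNA, where it works beside the deaminase APOBEC1, and it also acts in splicing. The labels do not say which part of A1cf was deleted or that the deletion is limited to one cell type. Libraries are named by genotype and the number in their label. P-values measure the spread between these mice.

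Tissue identity and depth were checked first. Totals ran from 22129092 to 51082317 counts, and 3 counts, the limit that a count of 0 allows, came to 0.059 to 0.131 CPM, the unit used here for counts scaled to a common library size by TMM. A1cf itself stood at 50.9 ± 2.26 CPM in WT livers and at 10.6 ± 1.55 CPM in KO livers (SD, n = 6 each), 20.9% of WT. The 8 hepatocyte markers summed to 96072 to 115675 CPM in WT and 87224 to 107889 CPM in KO. Macrophage markers summed to 130 to 216 CPM in WT and 134 to 479 CPM in KO, and stellate cell markers to 149 to 273 CPM and 232 to 355 CPM. All 8 hepatocyte markers had log2 fold changes below 0 in KO (median -0.12), and all 10 macrophage markers (median 0.70), all 8 stellate cell markers (median 0.49) and all 8 markers of sinusoidal endothelium (median 0.20) had values above 0. Past the threshold were 0 of 10 macrophage markers by edgeR (9 at an unadjusted p under 0.05, 3 by DESeq2, 0 by limma-voom). For stellate cell markers it was 2 of 8 (6 at an unadjusted p under 0.05, 3 by DESeq2, 3 by limma-voom). Among endothelial markers it was 1 of 8 (Stab2, adjusted p = 0.0452, edgeR), with 2 at an unadjusted p under 0.05 and 1 by DESeq2 or limma-voom. It was 0 of 8 hepatocyte markers (2 at an unadjusted p under 0.05, 0 by DESeq2 or limma-voom). In bulk tissue, fewer cells of a type and less RNA per cell cannot be told apart. KO 602 stood apart in 1 cholangiocyte marker, Spp1, at 505 CPM against 21.1 to 113 CPM in the other 11 libraries, while the other 7 markers of that list summed to 11.6 CPM there against 8.83 to 25.8 CPM. WT 590, WT 601 and KO 602 stood apart in acute phase genes, the plasma proteins that hepatocytes release in inflammation, at 78337, 58611 and 121895 CPM in sum against 14703 to 38921 CPM elsewhere. In mean log2 CPM of these genes they were at 9.62, 9.21 and 10.4. KO 588 at 8.68 and KO 591 at 8.05 came next, and the remaining libraries were at 6.41 to 7.02.

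As background, the 5 genes work in different places. PERP is a tetraspan membrane protein of desmosomes, the junctions that anchor keratin filaments, and a target of p53 and p63. TGDS belongs to the dehydratases of nucleotide sugars and is mutated in Catel-Manzke syndrome, a disorder of skeletal development. EBAG9, first found as an oestrogen-responsive gene, sits in Golgi and vesicle membranes and limits granule release from cytotoxic T cells. ITFG1 is a membrane protein with FG-GAP repeats like those of integrin alpha chains and binds the RUVBL ATPases. TMEM102, also called CBAP, binds the beta common chain shared by the receptors for GM-CSF, IL-3 and IL-5.

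The genes lie on different chromosomes, none of them the chromosome 19 of A1cf. In mm10, the build of the deposited table, Perp spans chr10:18845071-18857073 on the plus strand, with 3 exon records and 1901 exonic bases. Tgds spans chr14:118111911-118132765 on the minus strand (12 exon records, 2265 bases). Ebag9 spans chr15:44619641-44641024 on the plus strand (7 exon records, 1561 bases). Itfg1 spans chr8:85717557-85840949 on the minus strand (18 exon records, 3355 bases). Tmem102 spans only chr11:69803603-69805624 on the minus strand (2 exon records, 1933 bases). Counts cover each gene's exons together, so transcripts of one gene were not separated.

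Perp, the desmosome gene, had the highest level of the 5. In WT it ran from 88.6 CPM (WT 590) through a median of 112 to 121 CPM (WT 777), and in KO from 45.7 CPM (KO 780) through a median of 55.9 to 61.2 CPM (KO 602). The genotypes did not overlap, and every KO library was below the lowest WT library by 0.53 or more on the log2 CPM scale. The mean went from 109 ± 13.5 to 55.3 ± 5.69 CPM (SD, n = 6 each), so that KO stood at 50.9% of WT, a log2 fold change of -0.98 (SE 0.10). The lowest WT value of Perp came from WT 590, a library high in acute phase genes. KO 602, also high in them, had the highest KO value, and WT 601, the third such library, was at 105 CPM, near the WT mean. Without these 3 libraries the log2 fold change was -1.08, and a relation of Perp to acute phase genes was not tested.

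Tmem102, the receptor-binding gene, was the lowest of the 5 and differed by the largest fold. WT libraries ran from 8.46 CPM (WT 776) through a median of 9.88 to 12.5 CPM (WT 777). KO libraries ran from 3.84 CPM (KO 602) through a median of 4.80 to 5.48 CPM (KO 574). The genotypes again did not overlap, with a gap of 0.62 on the log2 CPM scale, the widest of the 5. KO stood at 47.5% of WT (9.87 ± 1.45 against 4.69 ± 0.69 CPM, SD, n = 6 each), a log2 fold change of -1.08 (SE 0.13). These values rest on the fewest counts, 88 to 405 per library, and counting alone gives a coefficient of variation of 8.64% in KO, of a measured 14.7%.

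Ebag9, the vesicle gene, ran in WT from 12.1 CPM (WT 601) through a median of 15 to 16.1 CPM (WT 573). In KO it ran from 7.58 CPM (KO 584) through a median of 7.87 to 9.25 CPM (KO 780). Within KO, 5 of the 6 libraries lay between 7.58 and 7.96 CPM and KO 780 lay above them, still under the lowest WT library. The mean was 14.6 ± 1.61 CPM in WT and 8.02 ± 0.62 CPM in KO (SD, n = 6 each), 54.8% of WT and a log2 fold change of -0.87 (SE 0.09).

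Tgds, the nucleotide sugar gene, ran from 18.1 CPM (WT 776) through a median of 20.5 to 23.0 CPM (WT 573) in WT. Its 6 KO libraries were within a narrow band, 11.3 to 12.6 CPM with a median of 12.2. The KO coefficient of variation was 4.13%, below the 5.31% that counting alone gives at this depth, while WT varied by 9.62%. The mean moved from 20.3 ± 1.96 to 12.2 ± 0.50 CPM (SD, n = 6 each), 59.7% of WT, with a log2 fold change of -0.74 (SE 0.07).

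Itfg1, the FG-GAP gene, had the smallest fold of the 5 and the tightest WT group. WT ran from 57.4 CPM (WT 601) through a median of 61.0 to 65.5 CPM (WT 777), and KO from 37.5 CPM (KO 584) through a median of 41.1 to 46.5 CPM (KO 588). The genotypes did not overlap, with a gap of 0.30 on the log2 CPM scale, the narrowest of the 5. Mean levels were 61.1 ± 3.46 and 41.4 ± 2.89 CPM (SD, n = 6 each), which put KO at 67.8% of WT and the log2 fold change at -0.56 (SE 0.06).

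**Figure D1:**
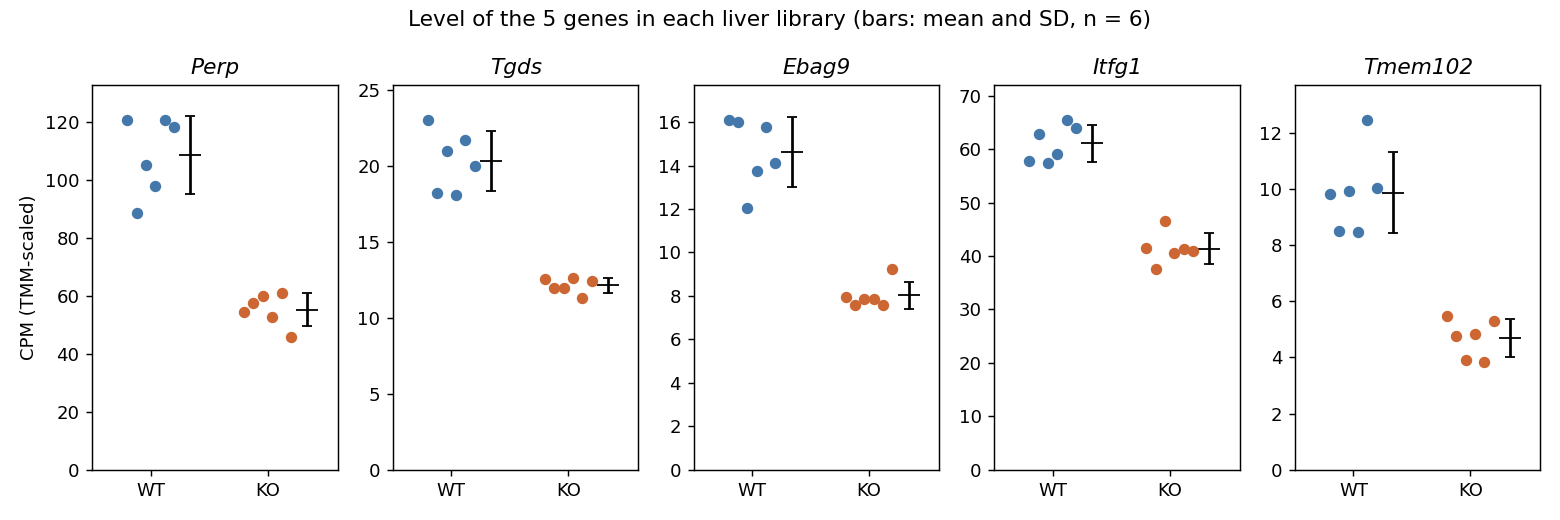
Level of each gene in CPM (vertical axes, each from 0) in the 6 WT and 6 KO libraries (points), with the mean and SD as bars. In all 5 panels the highest KO point is below the lowest WT point, from the wide gap of Tmem102 to the narrow gap of Itfg1, and the KO points of Tgds sit closest together, between 11.3 and 12.6 CPM.

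In the plot of the 5 genes by library the groups are separated in every panel. Over all 13706 tested genes, 3.82% were called between the genotypes (adjusted p under 0.05, Benjamini-Hochberg, quasi-likelihood test of edgeR), 2.09% were called lower in KO, and in 1.97% every KO library was below every WT library. All 5 genes are in each of these classes, and since they were chosen from this contrast nothing is read from that count. Ranked by log2 fold change among all tested genes, with the largest fall as rank 1, they stood at 49 (Tmem102), 68 (Perp), 97 (Ebag9), 143 (Tgds) and 291 (Itfg1). Ranked by the difference divided by the within-genotype SD of log2 CPM, Tgds stood at 5, Ebag9 at 8, Itfg1 at 9, Perp at 11 and Tmem102 at 20. Tgds and Itfg1 were thus far down the list by fold and near its top by fold relative to spread. High places in the second ranking follow from the choice, which was made by fold next to spread.

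Spread within WT or within KO can be compared with other genes, although a small spread also favoured the choice of the 5. The coefficient of variation in WT was 5.66% for Itfg1, 9.62% for Tgds, 11% for Ebag9, 12.4% for Perp and 14.7% for Tmem102, against a median of 15.7% over all tested genes. In KO it was 4.13% for Tgds, 6.98% for Itfg1, 7.77% for Ebag9, 10.3% for Perp and 14.7% for Tmem102, against a median of 16.5%. Tgds was at percentile 1.34 of all tested genes in KO but at percentile 23.1 in WT.

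Per kilobase of exon (FPKM, here CPM divided by exonic length in kilobases), the order in WT was Perp at 57.2 ± 7.10, Itfg1 at 18.2 ± 1.03, Ebag9 at 9.38 ± 1.03, Tgds at 8.98 ± 0.86 and Tmem102 at 5.10 ± 0.75 FPKM (SD, n = 6). In KO the levels were 29.1 ± 2.99, 12.3 ± 0.86, 5.14 ± 0.40, 5.37 ± 0.22 and 2.42 ± 0.36 FPKM in the same sequence of genes. Ebag9 and Tgds did not differ beyond their spread in either genotype, while the other neighbours in the order were separated by more than their SDs. Among all tested genes, Perp moved from percentile 93.8 of level in WT to 89.9 in KO and Tmem102 from 63.1 to 46.0. All 5 were therefore expressed at or above the middle of the tested range in WT liver.

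Library labels fall into a lower number range, 573 to 602 (3 WT and 5 KO), and a higher one, 776 to 780 (3 WT and 1 KO); the labels do not say what the numbers stand for. The choice of the 5 genes did not use this split directly. A difference between the ranges adds to the spread within a genotype, however, and a small spread favoured the choice. The values below are therefore a description of the 5. In a fit with genotype and number range, 4.36% of tested genes differed between the ranges, and 0 of the 5 did by edgeR, 0 by limma-voom and 0 at an unadjusted p under 0.05 (log2 differences from -0.04 for Perp to 0.16 for Tmem102, adjusted p from 0.526 to 0.898, edgeR). Within the lower range alone the difference in mean log2 CPM between KO and WT was -0.87 for Perp, -0.77 for Tgds, -0.90 for Ebag9, -0.52 for Itfg1 and -1.04 for Tmem102. In the higher range, which has 1 KO library, it was -1.29, -0.67, -0.65, -0.61 and -0.93 in the same sequence. The direction was the same in both ranges for each of the 5. Since every KO library was below every WT library, any split of the libraries had to give this, and only the sizes vary.

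**Figure D2:**
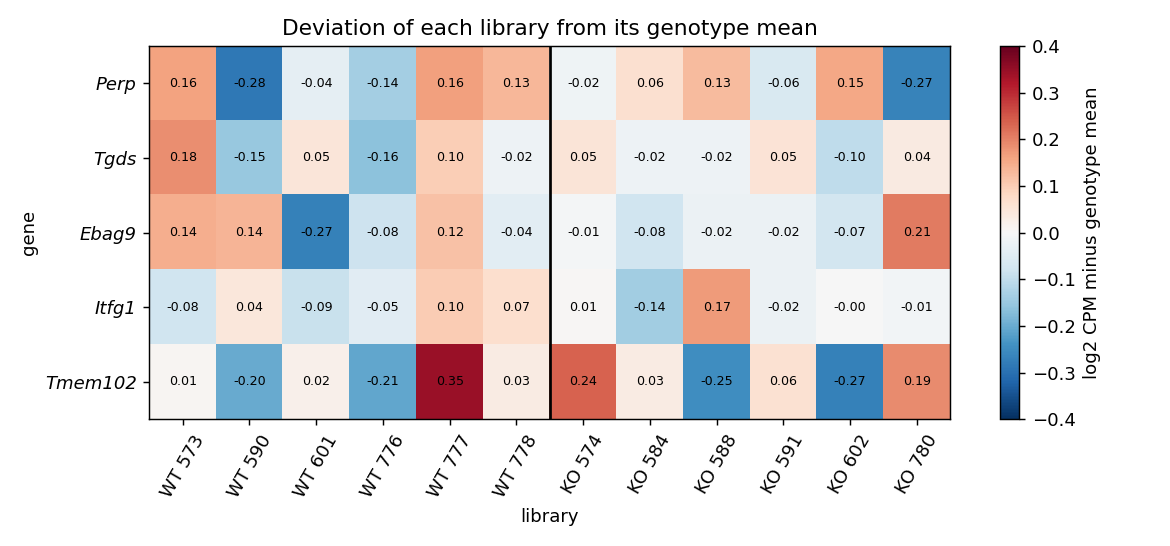
Deviation of each library from the mean of its own genotype, in log2 CPM (colour and printed value), for the 5 genes (rows) in the 12 libraries (columns, WT left of the line). WT 777 is above its genotype mean in all 5 genes, by up to 0.35 in Tmem102, and WT 776 is below it in all 5, whereas most other columns mix signs.

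Removing the genotype means leaves variation that the choice of the 5 did not use directly, and it is shown library by library in the map of deviations. Across the 10 pairs of the 5 genes, Pearson's r among the 6 WT libraries was positive in 9, from -0.16 to 0.83, and among the 6 KO libraries in 5, from -0.90 to 0.83. Perp and Tgds went together in WT (r = 0.83, rho = 0.83, exact permutation p = 0.047 and 0.058, two-sided). In KO the same pair gave r = -0.71 and rho = -0.77 (exact permutation p = 0.11 and 0.10), and the difference was not tested. Without the 2 libraries farthest from the median of Perp, r in WT was 0.36, so that relation rests on them. In KO, Perp and Ebag9 gave r = -0.90 and rho = -0.77 (exact permutation p = 0.026 and 0.10), with r = -0.35 without 2 libraries. Tgds and Tmem102 gave r = 0.83 and rho = 0.77 (exact permutation p = 0.028 and 0.10), with r = 0.85 without 2 libraries. After adjustment over the 20 correlations 0 passed, with 3 at an unadjusted p under 0.05, and the smallest adjusted p was 0.28 (exact permutation over 720 orders). The 5 genes were not shown to vary together from mouse to mouse within a genotype.

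For each gene the 3 named genes with the most similar deviations over the 12 libraries were taken as a description. Perp resembled Pusl1, a pseudouridine synthase-like gene (r = 0.92), Hsd17b12, an enzyme of fatty acid elongation (0.91), and Bloc1s3, a subunit of a lysosome-related organelle complex (0.86). Tgds resembled Ttc19, an assembly factor of respiratory complex III (0.91), Lcmt2 (0.89) and the kinase gene Nuak2 (0.88). Ebag9 resembled the SUMO ligase gene Pias1 (0.88), Mbtd1 (0.86) and Setd6 (0.86). Itfg1 resembled Gdi2, a regulator of Rab GTPases (0.84), Wwp1, a ubiquitin ligase (0.81), and Ndfip2, an adaptor of that ligase family (0.80). Tmem102 resembled the nucleolar gene Noc2l (0.96), Slc27a1, a fatty acid transporter (0.94), and the acetyltransferase gene Kat7 (0.89). All of these correlations come from the same 12 libraries, and only 6 of the 15 genes were taken again when ranks replaced values. Each is among the highest of a search over all named genes with a mean of at least 1 CPM, so high values follow from the choice. Within KO alone r was 0.51 for Setd6, 0.57 for Mbtd1 and 0.60 for Nuak2, and 0.83 or more for the others.

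Of these 15 genes, 1 passed the test between genotypes: Ndfip2 fell from 27.4 ± 2.70 to 22.2 ± 1.42 CPM (n = 6 each; log2 -0.30, SE 0.08, adjusted p = 0.0448, edgeR), and it lost the call in 15 of 21 other settings (adjusted p up to 0.409), 11 of which left out 1 library. Ttc19 gives the contrast most plainly. It followed Tgds within each genotype, with means of 18.2 ± 1.77 CPM (WT) and 18.3 ± 1.30 CPM (KO), where Tgds stood at 59.7% of WT. Slc27a1, which followed Tmem102 within each genotype, averaged 38.4 ± 12.8 CPM in WT livers and 76.1 ± 32.1 CPM in KO livers, an estimate in the other direction (log2 0.99, SE 0.29, adjusted p = 0.0828, edgeR).

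Itfg1 has a neighbour that differed in the opposite direction. Phkb, which encodes a regulatory subunit of phosphorylase kinase, the enzyme that switches on glycogen breakdown, starts 10 bases from the start of Itfg1 on the opposite strand, at chr8:85840959-86061376. Phkb rose in KO. WT libraries ran from 15.8 through a median of 18.2 to 20.4 CPM and KO libraries from 27.6 through a median of 31.0 to 33.2 CPM. The genotypes did not overlap, as with Itfg1 but in the opposite direction. The mean went from 18.4 ± 1.81 to 30.8 ± 2.21 CPM (SD, n = 6 each; log2 0.74, SE 0.08, adjusted p = 2.62e-04, edgeR), and the call was kept in all 21 other settings (adjusted p up to 0.0418).

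Set against each other within a library, Itfg1 counts were 2.83 to 3.68 times those of Phkb in WT (median 3.43) and 1.25 to 1.43 times in KO (median 1.36). The CPM of both genes together were 79.5 ± 4.19 in WT and 72.2 ± 4.70 in KO. Per kilobase of exon, Itfg1 went from 18.2 to 12.3 FPKM and Phkb from 2.48 ± 0.24 to 4.15 ± 0.30 FPKM. Exons of the pair do not overlap in the deposited annotation, so counting without strand does not mix their exonic reads.

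**Figure D3:**
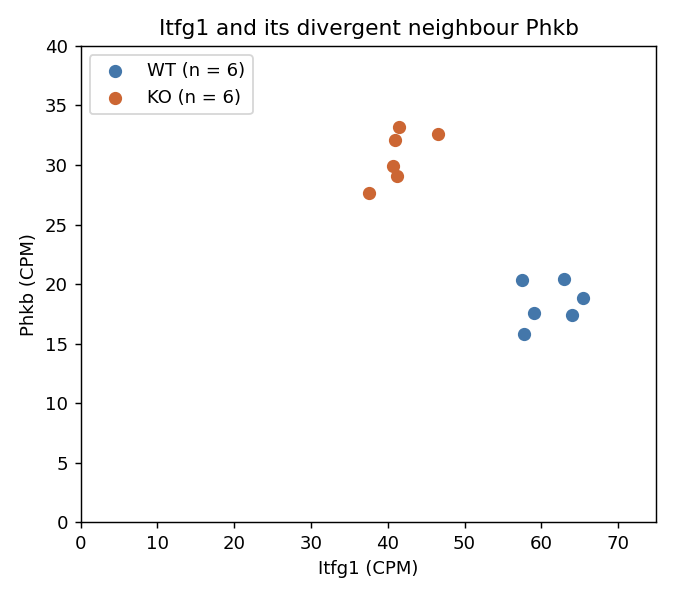
Phkb against Itfg1 in CPM (both axes linear, from 0), 1 point per library, coloured by genotype. The 6 KO points lie to the left of and above the 6 WT points, at Phkb levels of 27.6 to 33.2 CPM against 15.8 to 20.4 CPM, and the clusters do not meet on either axis.

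Over the whole table, 741 pairs of tested genes started under 1000 bases apart on opposite strands, transcribed away from each other. Of these pairs, 51 held a called gene and 36 held a gene called lower in KO. Each pair holds 2 genes, and over all tested genes 3.82% were called and 2.09% were called lower. Both genes were called in opposite directions in 2 pairs, Itfg1 with Phkb and Sugct with Mplkip (log2 -1.23 and 0.47). Both were called in the same direction in 2 others. Itfg1 was the only one of the 5 genes with such a tested partner. These pair counts were made after the values of Phkb had been seen.

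Promoter windows show where the pair meets. RefSeq windows in GRCm38.p6, the same build as mm10, run from 250 bases before to 50 bases after a gene's start, and 3 of the 5 genes matched by symbol: Itfg1, Tgds and Tmem102. They are printed 5′ to 3′ on the strand of the gene, with capitals for matches to the motifs named below.
Itfg1 (chr8:85840900-85841199, minus strand): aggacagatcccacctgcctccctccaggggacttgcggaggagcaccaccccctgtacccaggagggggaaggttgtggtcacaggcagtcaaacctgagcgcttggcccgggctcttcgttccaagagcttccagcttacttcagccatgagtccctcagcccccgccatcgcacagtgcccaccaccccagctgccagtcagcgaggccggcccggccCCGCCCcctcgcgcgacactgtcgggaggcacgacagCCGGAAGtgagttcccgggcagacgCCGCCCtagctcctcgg
Tgds (chr14:118132716-118133015, minus strand): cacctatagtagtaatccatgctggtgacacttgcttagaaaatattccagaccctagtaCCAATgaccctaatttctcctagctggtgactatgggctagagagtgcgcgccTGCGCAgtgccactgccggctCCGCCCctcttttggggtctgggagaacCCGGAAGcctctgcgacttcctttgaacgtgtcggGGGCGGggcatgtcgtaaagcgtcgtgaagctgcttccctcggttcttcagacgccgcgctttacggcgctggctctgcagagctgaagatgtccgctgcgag
Tmem102 (chr11:69805575-69805874, minus strand): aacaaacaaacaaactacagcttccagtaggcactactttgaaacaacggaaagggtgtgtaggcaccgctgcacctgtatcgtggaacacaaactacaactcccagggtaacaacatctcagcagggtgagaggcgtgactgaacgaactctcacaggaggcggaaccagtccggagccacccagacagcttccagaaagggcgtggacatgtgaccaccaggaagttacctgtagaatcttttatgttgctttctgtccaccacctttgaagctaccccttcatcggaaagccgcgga
The start of Phkb lies within the Itfg1 window, 10 bases upstream of the Itfg1 start, so the bases before that point are also the first transcribed bases of Phkb, read on its own strand.

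Short motifs of common promoter factors were searched on both strands. Positions are those of the first base, counted from the start as 1. The Itfg1 window held the GC box GGGCGG as its reverse complement at -29 and 34 and the ETS motif CCGGAAG at 9. The Tgds window held the CCAAT box at -190, the NRF1 core TGCGCA at -137, GC boxes at -116 (reverse complement) and -53, and the ETS motif at -88. The Tmem102 window held none of the motifs searched. Of 32851 windows, 35.7% held GGGCGG, 37.4% CCAAT, 8.9% CCGGAAG and 7.8% TGCGCA. The other letters searched were TATAAA (13.6% of windows), AAGATGG (6.3%), CACGTG (7.2%), TGACG (20.8%), GCGGGAA (4.6%), CAAAGTC (4.4%) and GTTAAT (7.1%), and they were in none of the 3 windows. The motifs do not overlap each other in these windows. Itfg1 and Tgds had CpG-rich windows, with 20 and 21 CpG and 68.0% and 57.3% GC, against medians of 7 CpG and 52.7% GC over all windows, while Tmem102 had 11 CpG and 51.3% GC. Itfg1 and Tgds thus both held the GC box and the ETS motif, and no motif of this set was in all 3 windows. A match marks letters only, not binding.

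Away from Phkb, 1 other gene in the surroundings of the 5 passed the test. Within 250 kb, 45 genes were tested, of which 1 was called higher (Phkb) and 1 lower, beside 3.82% called over all genes, and their median log2 fold change was -0.03 against 0.01 for all tested genes. Eny2, a subunit of the SAGA and TREX-2 complexes, lies 182 kb from Ebag9 and fell from 44.8 ± 2.30 to 34.3 ± 2.46 CPM (SD, n = 6 each; log2 -0.38, SE 0.06, adjusted p = 0.00535, edgeR). Its WT libraries ran from 41.9 through 45.4 to 47.3 CPM and its KO libraries from 31.1 through 35 to 37.2 CPM, without overlap, and the call was lost only among the libraries 573 to 602.

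The other 43 tested neighbours gave estimates in both directions and no call. Gpr180 starts 4362 bases from Tgds and had a log2 fold change of -0.16 (adjusted p = 0.36, edgeR). On its other side Dct was at 1.09 (adjusted p = 0.258, edgeR). Fgf11 and Nlgn2, which flank Tmem102, were at -0.14 and 0.12, Tnfaip3 beside Perp at -0.05, Sybu beside Ebag9 at -0.31 and Dnaja2 beside Itfg1 at -0.18. Trp53, the gene of p53, lies 212 kb from Tmem102 and was at 0.04. Exons of Gm26773, a gene model on the opposite strand, overlap Tgds in 2 exon records. Without a strand option, reads there cannot be assigned to 1 of them, and Gm26773 averaged 0.952 (WT) and 1.07 CPM (KO), far below Tgds. The nearest tested gene on the other side of Perp, Hebp2, lies beyond 250 kb and was at -1.40 (adjusted p = 0.0570, edgeR), from 0.682 ± 0.238 to 0.252 ± 0.167 CPM.

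**Figure D4:**
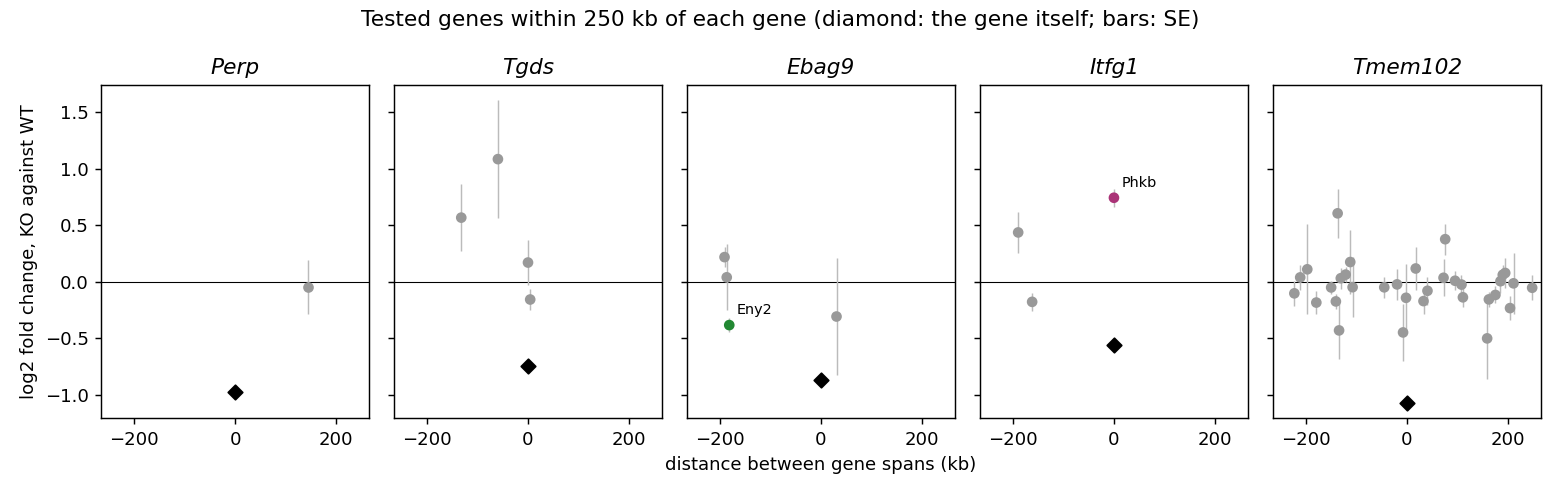
Log2 fold change of KO against WT (vertical axis, bars: SE) of tested genes against the distance between gene spans in kb (horizontal axis, from 250 kb on the lower-coordinate side to 250 kb on the other). Diamonds are the 5 genes themselves, coloured points passed the test; Phkb beside Itfg1 is up and Eny2 near Ebag9 is down, while grey points scatter around 0.

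A1CF binds AU-rich RNA, and the letters UAAUU are known as a core of its sites, so the 3′ UTRs of the 5 genes were read for TAATT on the transcript strand. The longest basic coding transcript per gene in GENCODE M21, on the same build, was used. Ebag9 held 9 matches in 1093 bases, or 8.23 per kb, at percentile 99.2 of 11703 tested genes. Perp held 3 in 1197 bases (2.51 per kb), Itfg1 2 in 1290 bases (1.55 per kb) and Tgds 1 in 596 bases (1.68 per kb). Tmem102 has an annotated 3′ UTR of 12 bases and held 0. Over the 11703 genes 61.7% held the motif, with a median of 0.84 per kb. The 3′ UTR of Ebag9 is also AT-rich, at 69.2% against a median of 55.3%. The site nearest the stop codon is shown for each gene with its flanks, the motif in capitals.
Ebag9, 332 bases from the stop codon: tggctgtaaaTAATTttatggtggg
Perp, 141 bases: aaattcttcaTAATTagtgttaagt
Itfg1, 189 bases: ttgtatataaTAATTtaggttctta
Tgds, 413 bases: aaacttttggTAATTgtataaaatt
The 12 bases of Tmem102 leave little room for a match, so its 0 cannot be set against its fold. Only 3′ UTRs were read, and a relation between matches and folds was not tested. A match is a description of these letters, and binding was not measured.

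Genes that work with each of the 5 were counted by list. With a list of acute phase genes, which belong to none of the 5, there were 11 lists and 197 tested genes, of which 3 rose and 5 fell, beside 3.82% called over all genes. Medians are log2 fold changes of KO against WT, to be read against 0.01 for all tested genes. Counts of genes below 0 are to be read against 6605 of 13706 over all tested genes.

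For Perp, the p53 pathway comes first. Of 31 tested genes of the p53 pathway 1 fell and 0 rose, with 16 below 0 and a median of -0.00. At an unadjusted p under 0.05 (edgeR) there were 6, while limma-voom called 1 and DESeq2 called 3. The 1 called by edgeR was Tigar, a p53-induced phosphatase that draws glucose away from glycolysis. Tigar fell from 10.2 ± 1.12 to 6.07 ± 0.67 CPM (SD, n = 6 each; log2 -0.74, SE 0.10, adjusted p = 0.00162 by edgeR). Its WT libraries ran from 8.33 through 10.6 to 11.2 CPM and its KO libraries from 5.24 through 6.29 to 6.72 CPM, without overlap, and the call was lost only among the libraries 573 to 602. Trp53 itself was at a log2 fold change of 0.04, Mdm2, its inhibitor, at 0.01, Bax at -0.07 and Ccng1 at -0.00, while Cdkn1a, the cell cycle inhibitor, was at -1.14 without passing the test.

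Desmosome and hepatocyte keratin genes, the partners of PERP in the junction, had 0 calls among 11 by edgeR (2 at an unadjusted p under 0.05, 0 by limma-voom, 1 by DESeq2), with 10 of 11 below 0 and a median of -0.14. With library totals in place of TMM, 8 of 11 were below 0, with a median of -0.095 against 0.06 for all tested genes. All 8 hepatocyte markers were below 0 as well (median -0.12), and the part of cell composition was not tested. In this list the smallest p belonged to 2 plakophilins, desmosome plaque proteins. Pkp3 was at -0.85 (1.12 ± 0.37 CPM in WT, 0.611 ± 0.115 CPM in KO, adjusted p = 0.0702, edgeR) and Pkp4 at -0.20 (adjusted p = 0.177, edgeR). The genotypes overlapped in Pkp3, at 0.662 to 1.54 CPM in WT and 0.421 to 0.728 CPM in KO, on 10 to 50 counts per library. Desmoplakin (Dsp) was at -0.20, Jup at -0.03, Dsg2 at -0.02, Krt8 at -0.09 and Krt18 at -0.14. Markers of squamous and other epithelium, where Perp is best known, were at or near 0 in these livers. The 5 markers summed to 0.073 to 0.243 CPM in WT and 0.042 to 0.257 CPM in KO, and Krt5 was at 0 in all 12 libraries. Among 12 tetraspan genes of the PMP22 and claudin families, 1 rose and 1 fell. Pmp22 went from 2.41 ± 0.53 to 3.84 ± 0.52 CPM (adjusted p = 0.0333, edgeR) and Cldn12 from 82.5 ± 4.03 to 69.8 ± 3.38 CPM (adjusted p = 0.0394, edgeR). They lost the call in 9 and 13 of 21 other settings, of which 7 and 9 left out 1 library, with adjusted p up to 0.119 and 0.204 (edgeR).

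For Tgds, most nucleotide sugar enzymes had estimates below 0 but few passed. Of 27 tested genes 22 were below 0, 2 fell and 0 rose, with a median of -0.17. At an unadjusted p under 0.05 (edgeR) there were 8, while limma-voom called 2 and DESeq2 called 5. The 8 hepatocyte markers, given above, were also all below 0 (median -0.12), and the part of cell composition in this list was not tested. Cmas, which activates sialic acid, fell from 57.0 ± 6.70 to 43.4 ± 2.03 CPM (n = 6 each; log2 -0.39, SE 0.08, adjusted p = 0.0150, edgeR). Its call was lost with library totals and among the libraries 573 to 602, where the log2 fold change was -0.25 (adjusted p = 0.244, edgeR). Galt, the uridylyltransferase of galactose use, fell from 40.4 ± 1.45 to 34 ± 2.49 CPM (adjusted p = 0.0408, edgeR), a call lost in 15 of 21 other settings, 11 of them with 1 library left out (adjusted p up to 0.265). Of the other genes of this list, Uxs1 was at -0.02 and Gmds at -0.19. With library totals in place of TMM the median of the list was -0.12, 20 genes were below 0 and 0 were called. Over all tested genes that scaling gave a median of 0.06, with 5379 of 13706 below 0. Of 14 genes of proteoglycan linker and chondroitin synthesis, 1 rose, Chpf, a chondroitin polymerising factor, from 2.76 ± 0.57 to 4.74 ± 0.94 CPM (adjusted p = 0.0208, edgeR). The call was lost in 3 of 21 other settings, with an adjusted p of 0.0549 without WT 777, 0.0854 without WT 590, WT 601 and KO 602, and 0.120 among the libraries 573 to 602 (edgeR). Stellate cell markers, given above, had a median log2 fold change of 0.49 in the same livers, and their part in Chpf was not tested.

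For Ebag9, 24 genes of secretory vesicles and Golgi had 0 calls by edgeR (5 at an unadjusted p under 0.05, 0 by limma-voom, 1 by DESeq2), with 14 below 0 and a median of -0.07. The smallest p belonged to Bloc1s6 (log2 -0.18, adjusted p = 0.0968, edgeR) and Gorasp1 (-0.32, adjusted p = 0.128, edgeR). Oestrogen receptors and their relatives, through which the gene was first found, had 0 calls among 8 by edgeR, limma-voom or DESeq2, with 3 at an unadjusted p under 0.05, 7 above 0 and a median of 0.15. Esr1, the main oestrogen receptor of liver, was at 0.11, Ncoa3, a receptor coactivator, at 0.20 (adjusted p = 0.194, edgeR) and Esrrg, the 1 gene below 0, at -0.61 (adjusted p = 0.182, edgeR). Markers of T and NK cells, in which EBAG9 limits secretion, were near the floor, at 0.733 to 3.75 CPM in sum in WT and 1.47 to 3.08 CPM in KO, against 14.6 and 8.02 CPM of Ebag9.

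For Itfg1, 1 of 20 genes with FG-GAP repeats or of the integrin and KICSTOR groups fell and 0 rose, with a median of 0.00. At an unadjusted p under 0.05 (edgeR) there were 7, while limma-voom called 3 and DESeq2 called 5. Fam234b, a membrane protein gene of a related FG-GAP family, fell from 55.1 ± 10.1 to 26.2 ± 5.51 CPM (n = 6 each; log2 -1.07, SE 0.15, adjusted p = 0.00153, edgeR). WT libraries ran from 41.4 through 53 to 68.0 CPM and KO libraries from 21.4 through 24.7 to 35.7 CPM, without overlap, and the call was kept in all 21 other settings. Its closest relative Fam234a was at -0.12. The 13 genes of the RUVBL ATPases and their complexes had 0 calls by edgeR, limma-voom or DESeq2 and 0 at an unadjusted p under 0.05, with 8 below 0 and a median of -0.09. Actr8 and Actr5, subunits of the INO80 complex, had the smallest p at -0.15 and -0.15 (adjusted p = 0.272 and 0.398, edgeR), and Ruvbl1 was at -0.09 and Ruvbl2 at 0.02.

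For Tmem102, 1 of 17 genes of beta common receptor signalling rose and 0 fell, with a median of 0.11. Csf2rb, the gene of the beta common chain itself, rose from 4.34 ± 0.79 to 7.56 ± 1.92 CPM (n = 6 each; log2 0.80, SE 0.17, adjusted p = 0.0209, edgeR). The call was lost in 4 of 21 other settings, with an adjusted p of 0.0556 without WT 777, 0.0509 without KO 574, 0.0919 among the libraries 573 to 602 and 0.0928 without WT 590, WT 601 and KO 602 (edgeR). The libraries overlapped slightly, from 3.55 through 4.11 to 5.70 CPM in WT and from 5.43 through 7.14 to 10.3 CPM in KO. Tmem102 and the gene of its binding partner differed between genotypes in opposite directions. Macrophages express Csf2rb, and their markers had a median log2 fold change of 0.70 in these livers. Their part in Csf2rb was not tested. Of the signalling genes below the receptor, Jak2 was at 0.21, Stat5a at 0.07 and Stat5b at 0.22.

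**Figure D5:**
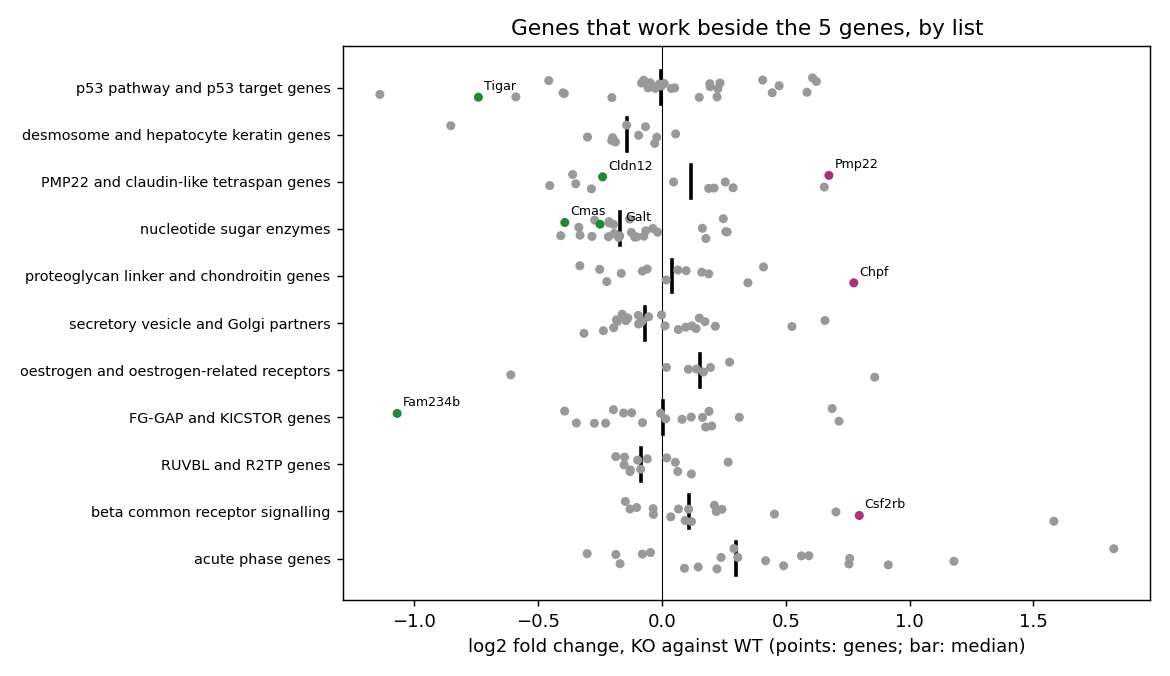
Log2 fold change of KO against WT (horizontal axis) of each tested gene in the 11 lists (rows), with the list median as a bar; coloured and named points passed the test. The 8 named genes are scattered over 6 lists, and the nucleotide sugar row is shifted to the left with its median at -0.17.

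The plot of the lists shows 8 single genes past the threshold. Acute phase genes had a median of 0.30, with 0 of 20 called by edgeR, limma-voom or DESeq2 and 1 at an unadjusted p under 0.05, and were high in the 3 libraries named at the outset. Lbp, at -0.30 (adjusted p = 0.115, edgeR), and Steap4, at 0.56 (adjusted p = 0.372, edgeR), had the smallest p. Without WT 590, WT 601 and KO 602, the log2 fold changes of the 5 genes were -1.08 (Perp), -0.75 (Tgds), -0.88 (Ebag9), -0.57 (Itfg1) and -1.07 (Tmem102), and each kept its direction.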

How the data were processed

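RNA-seq of whole liver from 6 WT and 6 KO mice was analysed from the authors' deposited raw counts per gene name. Per the file headers, the authors counted fragments of read pairs over the exons of GENCODE M8 with featureCounts 1.5.0-p2, with no option set for strand. Per the submitters' processing notes, STAR, DESeq2 and the mm10 build were used. Exonic length per gene, another value deposited by the authors, gave FPKM. The 5 genes and all lists were chosen with earlier results of these data known.

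Analysis of the counts used edgeR 4.0.16 under R 4.3.3 (filterByExpr with minimum count 10, TMM, robust quasi-likelihood test with genotype as the only term, Benjamini-Hochberg adjustment over 13706 genes, threshold 0.05). "Rose" and "fell" mean past that threshold. The SE is the log2 fold change divided by the square root of F, and log2 CPM used a prior count of 2. Other genes were named by rule: the 3 nearest in within-genotype deviations (mean of at least 1 CPM), the nearest tested gene on each side, genes with overlapping exons, and from each list up to 4 called genes or otherwise the 2 with the smallest p as values. Further list members given as bare log2 values, and Sugct and Mplkip, were picked after their values were seen. Libraries of one genotype differed by more than sampling of counts gives (chi-square divided by its degrees of freedom was 15.1 to 272), so each is 1 sample. Alternatives were RLE factors, library totals, 2 other filters, DESeq2 1.42.0, limma-voom (limma 3.58.1), number range as a covariate, only libraries 573 to 602, each library left out and, added after the data were seen, WT 590, WT 601 and KO 602 left out. Steps were tested on simulated data. Floors cover counting error only.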

Additional observations from a re-analysis of the deposited data

Results flagged for a closer look

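In 4 of 100 groups of 6 libraries, over 50 named genes, the highest or lowest library lay further from the rest than Dixon's 95% value allows; chance gives about 1 in 20. Ebag9 was at 9.25 CPM in KO 780 against 7.58 to 7.96 CPM in the other 5 KO libraries, still below every WT library. Its log2 fold change stayed between -0.92 and -0.84 whichever library was left out. Sybu, which lies beside Ebag9, was at 1.07 CPM in KO 584 against 0.210 to 0.394 CPM in the other KO libraries, and Esrrg, an oestrogen-related receptor, was at 0.984 CPM in the same library against 2.25 to 2.95 CPM. Steap4, an acute phase gene, was at 245 CPM in KO 602 against 58.0 to 125 CPM, and this library also had the highest acute phase sum.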

How the results depend on the processing

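Each of the 5 genes kept its direction in all 21 other settings. Log2 fold changes ran from -1.08 to -0.87 for Perp, -0.78 to -0.70 for Tgds, -0.92 to -0.82 for Ebag9, -0.60 to -0.51 for Itfg1 and -1.13 to -0.999 for Tmem102. For Perp, at -0.98 (SE 0.10) in the main fit, the ends were -1.08 without WT 590, WT 601 and KO 602 and -0.87 among the libraries 573 to 602. With every KO library below every WT library, leaving out libraries was bound to keep the direction. Counts of calls moved more than the fold changes. Over all genes the main count was 523 (236 higher, 287 lower). DESeq2 gave 1175 (548 higher, 627 lower), the libraries 573 to 602 alone 57 (25 higher, 32 lower), and library totals 405 (266 higher, 139 lower). Leaving out each library gave 266 to 638, with 266 without WT 777, 294 without WT 778, 312 without WT 573, 315 without KO 574, 319 without KO 588 and 324 without KO 591. Over the lists the main count was 8. Library totals gave 5, DESeq2 21, the libraries 573 to 602 alone 1 and the set without WT 590, WT 601 and KO 602 gave 4. Leaving out each library gave 3 to 10, with 3 without WT 777 and 5 without each of KO 574, KO 588 and KO 591. Among the neighbours within 250 kb the main count was 2. Leaving out each library gave 2 in every case, the libraries 573 to 602 alone 1 and a distance of 100 kb 1. Ranks in place of values shared 6 of 15 of the most similar genes. The cause of these changes was not tested, beyond the smaller numbers of libraries or genes that a setting leaves. No paired analysis was possible because the groups share no library number. Genes of few counts, such as Tmem102 with 88 to 405, are the least precise.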
